A study of Mus musculus with 6 samples.

Results

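Replication-dependent histone genes were examined in mouse bone marrow RNA-seq. They were taken as every protein-coding gene in the count table whose symbol begins with Hist1h, Hist2h, Hist3h or Hist4h, which gave 65 of 49315 rows. Symbols came from GENCODE M21 (GRCm38), which matched 49056 of the row identifiers and lists 67 protein-coding genes with such symbols. The other 2 were not analysed here, and 3 histone pseudogene rows were left out. Of the 65 genes, 52 lie on chromosome 13 (the Hist1 cluster), 10 on chromosome 3 (Hist2), 2 on chromosome 11 (Hist3) and 1 on chromosome 6 (Hist4). They encode 6 H1, 18 H2A, 16 H2B, 12 H3 and 13 H4 histones.

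The libraries fell into 2 groups, 3 KO libraries (replicates 2, 3 and 4) from miR-181a2b2-/- mice and 3 WT libraries (replicates 1, 3 and 4) from miR-181a2b2flox/flox mice. Both groups carried an altered allele, since the WT mice were floxed, and in both the HFSC diet and hindlimb ischemia preceded the sampling of marrow. The RNA was poly(A) selected. The labels give no age, and nothing in them says that the libraries came from separate animals, so a p-value here speaks of the spread among these libraries alone. In bulk marrow, fewer cells of a type and less RNA per cell cannot be told apart.

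Core histones H2A, H2B, H3 and H4 form the nucleosome, and linker histone H1 binds the DNA where it enters and leaves. Cells make most of this protein during S phase from clustered genes whose transcripts, unlike other mRNAs, end in a conserved stem-loop in place of a poly(A) tail. The stem-loop is bound by SLBP, and cleavage just past it is guided by the U7 snRNP. Some of these genes also make polyadenylated transcripts, which have been described in differentiating and non-dividing cells, and poly(A) selection is built to capture that form and not the stem-loop form.

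The stem-loop was searched for in the annotated transcripts because it is the element that sets these genes apart from other mRNAs. The 16-letter motif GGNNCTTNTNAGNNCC was found past the stop codon in 44 of 65 members. Another 11 members have a model that ends with the coding part and could not hold it. Among the 54 members with a longer model the share was 81.5%, against 0.548% of 21886 other protein-coding genes with the motif anywhere in a transcript. The 8 forms found are given 5′ to 3′ from the GENCODE M21 transcripts, as DNA letters, with the 6 bases of each arm of the stem in capitals and the 4 bases of the loop in lower case.
24 members, among them Hist1h1c (chr13:23739512-23739527, plus strand) and Hist1h2bg (chr13:23571843-23571858, plus strand): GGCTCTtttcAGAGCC
7 members, all of type H4: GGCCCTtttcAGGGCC
6 members: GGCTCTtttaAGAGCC
Hist1h4i (chr13:22040966-22040981, minus strand) and Hist2h4: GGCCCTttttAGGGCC
Hist1h4b and Hist1h4j: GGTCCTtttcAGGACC
Hist2h2ac: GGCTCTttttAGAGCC
Hist1h4a: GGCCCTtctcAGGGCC
Hist1h3g: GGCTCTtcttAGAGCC
The arms pair with each other in every form, so the forms differ by paired changes in the stem and by single bases in the loop.

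The annotated transcript ran on past the loop in many members. It did so by 840 bases in Hist1h1c, 155 in Hist1h2bg and 330 in Hist1h4i, and by over 100 bases in 22 members in all. A poly(A) signal, AATAAA or ATTAAA, lay in the last 40 bases of the model of 17 members. The 27 members with either feature took 72.9% of the reads counted on the 65 genes, against 22.8% for 27 members with neither and 4.26% for the 11 coding-only models. Per kilobase of exon the classes were closer. The median level was 1.49 CPM per kb in the first class, 2.88 in the second and 3.57 in the third. Pooled over all exons of a class, it was 5.60 CPM per kb in the first, 5.58 in the second and 3.56 in the third. Hist1h1c, Hist1h4i and Hist1h2bg of the first class were 3 of the 4 members with the highest level per kb. The other, Hist1h2bc of the second class, held 7551 of the 18007 counts of that class, so its pooled value leaned on this gene. The model of Hist1h2bc has 1156 exon bases, 381 of them coding, and no loop was found in it. Which transcript form the reads came from was not tested.

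Library totals lay between 33861440 and 39566582 counts in KO and between 34000323 and 40359093 counts in WT. A count of 3, taken as the floor, was worth 0.0758 to 0.0886 CPM (read counts scaled to library size) in KO and 0.0743 to 0.0882 CPM in WT, and covers counting error only. Of 16956 genes tested with edgeR's quasi-likelihood test, 417 passed a Benjamini-Hochberg adjusted p of 0.05 (258 lower in KO and 159 higher), and the median log2 fold change over all genes was -0.01. KO replicate 4 stood apart on the first principal component (40.05% of the variance), at 53.9 against 9.09 and 12.0 for the other KO libraries and -27.5 to -21.9 in WT. Mir181a-2 and Mir181b-2 had 0 counts in all 6 libraries; poly(A) selection is not built to capture such precursors, so this checks nothing about the labels. Xist exceeded 1 CPM in KO replicate 2 and in WT replicates 3 and 4, so each group held libraries above and below it.

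The extraction label names white adipose tissue, while the source is given as bone marrow. Adipocyte markers summed to 48.1 to 51.4 CPM in KO and 35.6 to 45.5 CPM in WT. Lipe, a lipase gene that is not confined to fat, made up most of that sum, at 42.3 to 42.9 CPM in KO and 30.8 to 41.9 CPM in WT. The more defining Lep and Plin1 stayed at or below 0.208 CPM, with Lep at 0 in KO replicates 3 and 4 and in WT replicates 3 and 4, and Adipoq was at 4.38 to 6.62 CPM in KO and 2.70 to 4.77 CPM in WT. Neutrophil markers summed to 61809 to 75568 CPM in KO and 41527 to 52151 CPM in WT. The 8 neutrophil markers had a median log2 fold change of 0.53 and 3 of them passed the test as higher in KO. Erythroid markers summed to 12490 to 22593 CPM in KO and 12922 to 30171 CPM in WT, and the part of cell makeup in the histone levels was not tested.

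Histone transcripts were a small part of these libraries. The 65 genes together took 12614, 8132 and 9165 counts in KO replicates 2, 3 and 4, against 14051, 17392 and 17659 counts in WT replicates 1, 3 and 4. That was 0.0223% to 0.0373% of a KO library and 0.0413% to 0.0438% of a WT library. A single gene, Hist1h1c, which encodes the linker histone H1.2, held 41.2% of the 79013 reads. By type, H1 held 48.2%, H2B 25.8%, H4 12.8%, H2A 8.38% and H3 4.73%. These are shares of counted reads, and the types differ in how much of their sequence is found in no other gene's transcript. The median share of such 50-base stretches was 98.9% in H1, 38.0% in H3 and 27% in H2A. The part of this in the shares by type was not tested. In H1 and H4, 1 member held most of the counts. Hist1h1c held 85.3% of the H1 counts, Hist1h4i 55.0% of the H4 counts, Hist1h2bc 37.0% of the H2B counts, Hist1h3c 30.6% of the H3 counts and Hist3h2a 21.3% of the H2A counts. Per kilobase of exon, mean levels were highest for Hist1h1c at 91.8 CPM per kb, Hist1h4i at 34.1, Hist1h2bc at 28.8, Hist1h2bg at 18.2 and Hist1h2bj at 12.2, while the median over all members was 2.64 CPM per kb.

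Summed histone transcript was lower in every KO library than in any WT library, and by type this held for H1 and H2B and not for H2A, H3 and H4. All types together came to 374, 227 and 244 CPM in KO and to 406, 427 and 421 CPM in WT, or 282 ± 80.5 against 418 ± 10.7 CPM (SD, n = 3 each), a log2 ratio of -0.57. H2B sums were 81.3, 63.8 and 69.3 CPM in KO and 108, 107 and 112 CPM in WT, a log2 ratio of -0.61. H1 sums were 186, 97.1 and 101 CPM in KO and 189, 226 and 211 CPM in WT, a log2 ratio of -0.71. For H1, KO replicate 2 came close to WT replicate 1, while for H2B every KO library lay well below every WT library. H2A sums were 35.5, 20.6 and 21.9 CPM in KO and 35.7, 32.6 and 31.1 CPM in WT, a log2 ratio of -0.35. H3 sums were 18.7, 11.4 and 13.04 CPM in KO and 23.5, 16.6 and 17.1 CPM in WT, a log2 ratio of -0.41. H4 sums were 52.9, 34.2 and 39.3 CPM in KO and 49.98, 45.4 and 49.5 CPM in WT, a log2 ratio of -0.20. In these last types the groups overlapped, each time because of KO replicate 2. No test was made on a sum, since the genes were chosen with results of these libraries known.

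**Figure D1:**
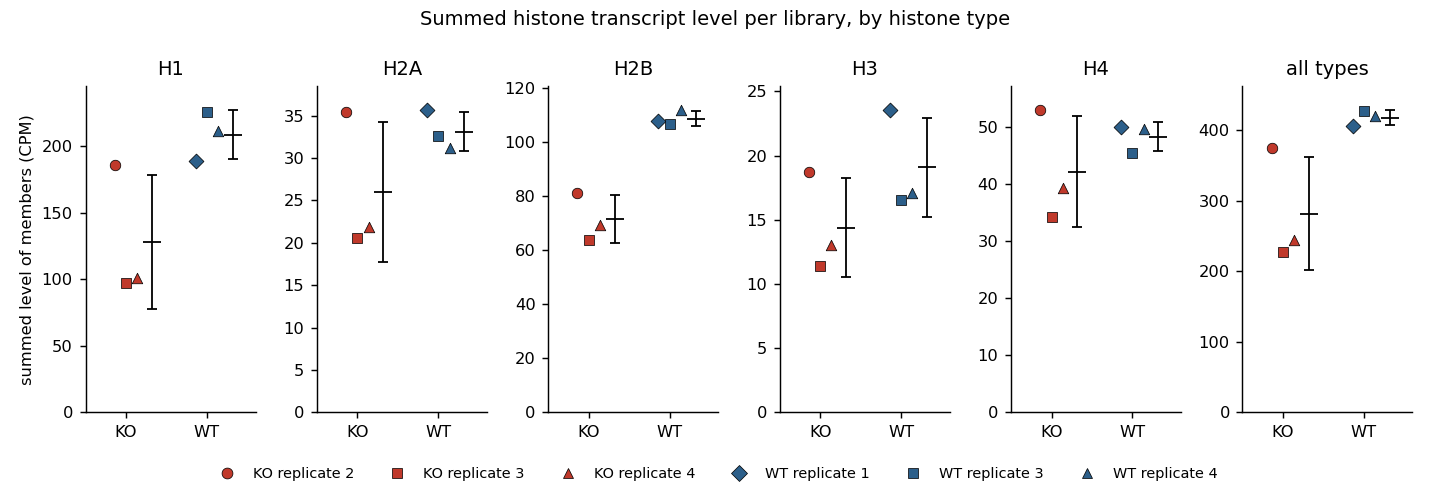
Summed level of the histone genes of each type and of all types (y axis, CPM) in each library, KO left of WT; points are libraries and bars the mean and SD of 3. KO and WT do not overlap for H1, H2B and all types, and KO replicate 2 lies among or near the WT libraries for every type but H2B.

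KO replicate 2 bore most on these differences. Over the 52 members tested it was the highest KO library in 45, and it lay below all WT libraries in 15 and above all of them in 14. KO replicate 3 was below all WT libraries in 46 members and KO replicate 4 in 38. Without KO replicate 2 the log2 ratios were -1.08 for H1, -0.64 for H2A, -0.71 for H2B, -0.64 for H3 and -0.39 for H4, and no type overlapped. Of 53 members tested without it, 52 had a log2 fold change below 0 (against 51.5% of all genes) and 7 passed as lower (13.2%, against 2.11%). H1 and H2B sums stayed apart whichever of the 6 libraries was left out, between -1.08 and -0.54 for H1 and between -0.71 and -0.53 for H2B. The H1 sum mostly followed Hist1h1c, which held 85.3% of the H1 counts. Over the 5 H1 genes tested on all libraries, the median log2 fold change was -0.12. Leaving out Hist1h1c in place of a library brought the log2 ratio of all types to -0.40, with sums of 224, 147 and 164 CPM in KO and 246, 226 and 234.5 CPM in WT, where KO replicate 2 lay just under WT replicate 3.

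B cell precursor markers followed a like order across the KO libraries. Their sum was 304, 106 and 113 CPM in KO replicates 2, 3 and 4, against 241, 222.5 and 363 CPM in WT replicates 1, 3 and 4, a median log2 fold change of -0.59 over the 8 genes, of which 0 passed the edgeR test and 0 had an unadjusted p under 0.05. Mature B cell markers summed to 104, 48.5 and 55.4 CPM in KO replicates 2, 3 and 4 and to 166, 88.9 and 151 CPM in WT replicates 1, 3 and 4, a median log2 fold change of -1.02 over 6 genes, of which 4 were lower at an unadjusted p of 0.05. KO replicate 2 was also the highest KO library, and KO replicate 3 the lowest, in the erythroid sum (22593, 12490 and 15115 CPM) and the megakaryocyte sum (471, 227 and 404 CPM). The megakaryocyte sums in WT were 343, 215 and 227 CPM, and the median log2 fold change of that list was above 0, at 0.60. The adipocyte sum also had KO replicate 2 highest and 3 lowest among KO libraries (51.4, 48.1 and 49.4 CPM). In the skeletal muscle sum KO replicate 2 was again the highest KO library (15.5, 10.4 and 9.81 CPM). In some other marker lists the order differed. KO replicate 2 was the lowest KO library in the plasma cell sum (539, 606 and 618 CPM) and the monocyte sum (2582.5, 3320 and 2948.5 CPM). KO replicate 4 was the highest in the neutrophil sum (67318, 61809 and 75568 CPM). S-phase and DNA replication genes had another order, summing to 6114, 6924 and 6534 CPM in KO and to 8186, 7410 and 7875 CPM in WT. KO replicate 2, the KO library highest in histone transcript, was the lowest of all 6 in the S-phase sum. Without Mki67, left out after its values were seen, the sums were 4988, 5048 and 5233 CPM in KO and 5853, 5176 and 5556 CPM in WT, so that KO replicate 2 was barely the lowest and the groups overlapped. The part of these lists in the histone levels was not tested.

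**Figure D2:**
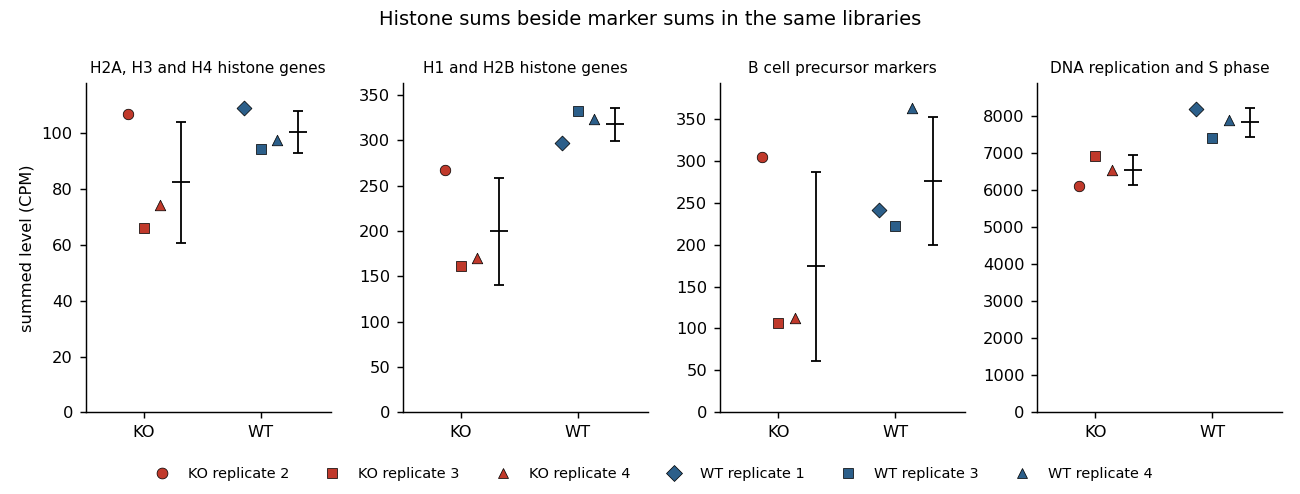
Summed level (y axis, CPM) of H2A, H3 and H4 genes, of H1 and H2B genes, of B cell precursor markers and of S-phase genes in each library, KO left of WT; points are libraries and bars the mean and SD of 3. KO replicate 2 is the highest KO library in the first 3 panels and the lowest library in the S-phase panel.

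Gene by gene, 52 of 65 members passed the filter on low counts, and 51 of these lay above it in all 6 libraries. By the edgeR quasi-likelihood test, 1 member was lower in KO (1.92% of the 52, against 1.52% of all genes tested) and 0 were higher (against 0.938% of all genes). The called share of the members was thus near that of all genes. DESeq2 called 8 of 46 members lower (17.4%, against 5.35% of all genes with an adjusted p) and limma-voom 4 of 52 (7.69%, against 2.57%), and both called 0 higher. At an unadjusted p of 0.05, 13 members were lower (25%, against 12.2% of all genes) and 0 were higher (against 11.7%). They were 7 H2B, 3 H2A, 2 H1 and 1 H3 gene. All KO libraries lay below all WT libraries in 14 members (26.9%, against 14.7%) and above them in 0 (against 14.4%). The log2 fold change was below 0 in 47 of the 52 (90.4%, against 51.1% of all genes), and the median was -0.39, against -0.01 over all genes. The members share libraries, a cluster and reads between copies, so these counts are not independent of each other. The 5 members with a value above 0 were Hist1h1e, Hist1h2af, Hist1h2an, Hist1h2ao and Hist2h3c2. By type, the median log2 fold change was -0.52 for 12 H2B genes, -0.37 for 12 H4, -0.35 for 10 H3, -0.30 for 13 H2A and -0.12 for 5 H1 genes. The small H1 median and the large H1 sum differ because Hist1h1c alone made up most of the sum.

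**Figure D3:**
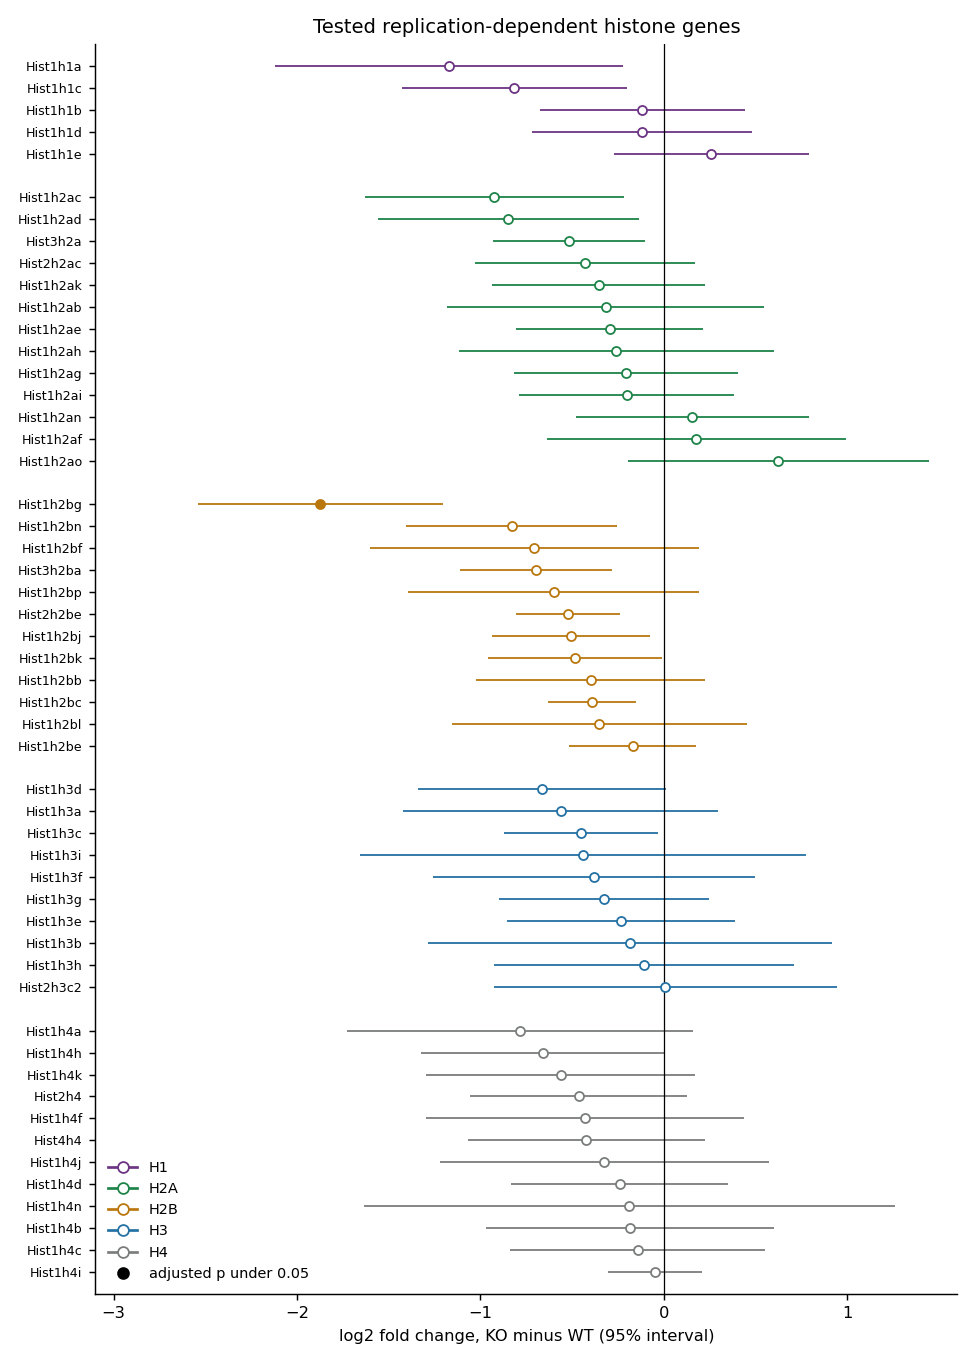
Log2 fold change, KO minus WT (x axis), of the 52 histone genes tested, grouped by type and ordered by value; lines are 95% intervals and the filled point passed an adjusted p of 0.05. Hist1h2bg stands at -1.87, and 47 of 52 points lie left of 0.

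The gene that passed encodes an H2B. Hist1h2bg (ENSMUSG00000058385) was at 7.18, 4.36 and 2.96 CPM in KO, against 16.03, 17.4 and 19.5 CPM in WT. The groups lay far apart, with no KO library near the lowest WT library. Its mean fell to 4.83 ± 2.15 CPM in KO, against 17.6 ± 1.74 CPM in WT (SD, n = 3 each), 3.66-fold lower, with a log2 fold change of -1.87 ± 0.29 (SE) and an edgeR adjusted p of 0.0280. The call was lost when WT replicate 1, 3 or 4 was left out, with adjusted p of 0.105, 0.0613 and 0.0895 at log2 fold changes of -1.94, -1.88 and -1.79, and it was kept without any one KO library. Of its 50-base stretches, 50.3% occur in no other gene's transcript. Its nearest copy, Hist1h2bc, has the same base at 98.7% of coding positions.

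Other H2B genes differed by less. Hist1h2bc, the H2B gene with most reads, was at 28.9, 25.6 and 32.1 CPM in KO and at 35.0, 38.6 and 39.9 CPM in WT, a log2 fold change of -0.39 ± 0.11 (SE) with an edgeR adjusted p of 0.0788. Hist2h2be, on chromosome 3 and with every 50-base stretch unique to it, was at 14.9, 12.0 and 12.1 CPM in KO and at 20.4, 16.8 and 18.9 CPM in WT, a log2 fold change of -0.52 ± 0.13 (adjusted p = 0.0615). Hist3h2ba was at 4.87, 4.16 and 3.97 CPM in KO and at 7.80, 5.54 and 7.75 CPM in WT, a log2 fold change of -0.70 ± 0.18 (adjusted p = 0.0746). In all of these the groups did not overlap, as in Hist1h2bj (-0.51 ± 0.19), Hist1h2bk (-0.49 ± 0.21) and Hist1h2bn (-0.83 ± 0.26), but none of them passed the adjusted threshold in this test. DESeq2 called Hist1h2bc, Hist2h2be, Hist3h2ba and Hist1h2bn as well as Hist1h2bg. Hist1h2be, at -0.17 ± 0.15, had the H2B value nearest to 0. It shares exon sequence on the same strand with the H1 gene Hist1h1e, so reads there could be given to either gene or left out of both.

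**Figure D4:**
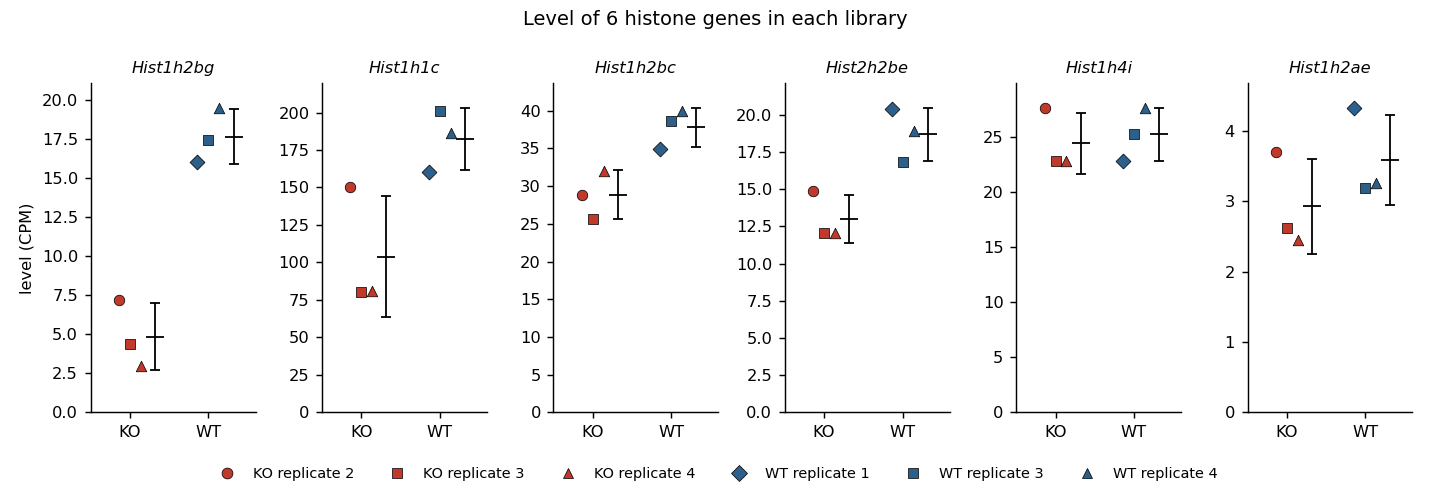
Level of 6 histone genes (y axis, CPM) in each library, KO left of WT; points are libraries and bars the mean and SD of 3. KO lies below WT in Hist1h2bg, Hist1h1c, Hist1h2bc and Hist2h2be, and the groups overlap in Hist1h4i and Hist1h2ae.

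H2A and H2B genes often lie head to head and share a promoter region. There were 12 such pairs among the members, with 176 to 306 bases between annotated start sites. Hist1h2bg and the H2A gene Hist1h2ae start 176 bases apart, the least of the 12. Hist1h2ae was at 3.71, 2.63 and 2.45 CPM in KO and at 4.33, 3.19 and 3.27 CPM in WT. The groups overlapped, and the log2 fold change was -0.30 ± 0.23 (SE, adjusted p = 0.462), against -1.87 ± 0.29 for Hist1h2bg. In other pairs the H2A and H2B values were closer. Hist2h2ac was at -0.43 ± 0.27 and its partner Hist2h2be at -0.52 ± 0.13; Hist1h2ad was at -0.85 ± 0.32 and its partner Hist1h2bf at -0.71 ± 0.40. Hist1h2ac, at -0.92 ± 0.32, had the more negative value beside Hist1h2bc at -0.39 ± 0.11. Hist1h2ak, at -0.36 ± 0.26, had the less negative value beside Hist1h2bn at -0.83 ± 0.26. The signs differed for Hist1h2an at 0.15 ± 0.28 and its partner Hist1h2bp at -0.60 ± 0.35. No difference between partners was tested.

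The promoter of Hist1h2bg (RefSeq symbol H2bc8) is printed because it is that of the gene that passed and spans the start sites of both partners. It covers chr13:23571150-23571449 on the plus strand (RefSeq, GRCm38.p6), from 250 bases before the RefSeq start to 50 after it, with motif matches in capitals.
Hist1h2bg promoter: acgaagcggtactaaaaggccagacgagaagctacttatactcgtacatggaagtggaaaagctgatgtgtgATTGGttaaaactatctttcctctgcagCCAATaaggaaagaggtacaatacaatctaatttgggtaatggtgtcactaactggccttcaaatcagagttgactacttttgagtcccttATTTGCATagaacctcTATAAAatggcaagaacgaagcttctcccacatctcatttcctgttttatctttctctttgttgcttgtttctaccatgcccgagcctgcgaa
The letters searched on both strands were TATAAA for the TATA box, CCAAT for the CCAAT box and ATTTGCAT for the octamer. The capitals mark, in order, a CCAAT box read on the minus strand, a second one on the plus strand, the octamer, which is bound by Oct-1, and the TATA box. None of them overlaps another. RefSeq promoters of this length were found for 60 members. TATAAA was in 58.3% of them, against 13.6% of all 32851 promoters, and CCAAT in 85%, against 37.4%. Every H1, H2A, H2B and H3 promoter held CCAAT, against 25% of the H4 promoters. The octamer was in 20% of member promoters, against 1.74% of all, and in none of the H1, H3 or H4 promoters. Hist1h2bg and Hist1h2ae share this stretch and its octamer, and their values were those given above. Windows of other head-to-head partners can overlap as well, so a site can count for both genes in the shares above. These matches describe the letters in the window and are no measure of binding.

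Among the H1 genes, the linker histones, Hist1h1c was at 151, 80.3 and 80.6 CPM in KO and at 160, 201 and 186 CPM in WT. The groups did not overlap, though KO replicate 2 lay just under WT replicate 1. Its log2 fold change was -0.82 ± 0.26 (SE), with an edgeR adjusted p of 0.127. The alternatives that called it included DESeq2, limma-voom and leaving out KO replicate 2. Hist1h1a had the most negative H1 value, at 2.97, 0.838 and 1.31 CPM in KO and 4.45, 3.09 and 3.96 CPM in WT, a log2 fold change of -1.17 ± 0.41 (adjusted p = 0.140). DESeq2 and leaving out KO replicate 2 were among the alternatives that called it. Hist1h1b was at -0.12 ± 0.25 and Hist1h1d at -0.12 ± 0.26. Hist1h1e was at 12.3, 6.48 and 7.39 CPM in KO and 8.44, 6.65 and 6.77 CPM in WT, a log2 fold change of 0.26 ± 0.24 in which only KO replicate 2 stood above all WT libraries. Hist1h1t, the testis-specific H1, had 8 counts in all and was not tested.

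H2A genes were lower in level and more alike in sequence. Hist3h2a, the H2A gene with most reads, was at 6.44, 4.08 and 4.91 CPM in KO and at 7.54, 7.56 and 6.96 CPM in WT, a log2 fold change of -0.52 ± 0.18 (SE, edgeR adjusted p = 0.136). Hist1h2ac was at 3.15, 1.26 and 1.57 CPM in KO and at 3.58, 3.58 and 4.15 CPM in WT (adjusted p = 0.124). In these and in Hist1h2ad all KO libraries lay below all WT libraries, and none passed the edgeR test over all 6 libraries. Alternatives that called Hist1h2ac included DESeq2, no filter on low counts and leaving out KO replicate 2. Hist1h2ak was at -0.36 ± 0.26, Hist1h2ag at -0.21 ± 0.27, Hist1h2an at 0.15 ± 0.28 and Hist1h2ao at 0.62 ± 0.37, all with overlapping groups.

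H3 and H4, which enter the nucleosome as a tetramer, had no member past the adjusted threshold with edgeR, DESeq2 or limma-voom, and 1 H3 gene and 0 H4 genes had an unadjusted p under 0.05. Hist1h3c was at 4.90, 3.63 and 4.37 CPM in KO and at 6.96, 5.54 and 5.15 CPM in WT, a log2 fold change of -0.45 ± 0.19 (SE, edgeR adjusted p = 0.182) without overlap. Hist1h3d also did not overlap, at -0.66 ± 0.30. Hist1h3a was at -0.56 ± 0.38, Hist1h3i at -0.44 ± 0.53 and Hist1h3e at -0.23 ± 0.28. Of the H4 genes, 12 of 12 tested had a value below 0 and 12 of 12 had overlapping groups. Hist1h4i, with the highest level per kilobase after Hist1h1c, was at 27.6, 22.8 and 22.8 CPM in KO and at 22.8, 25.3 and 27.6 CPM in WT. Its log2 fold change was -0.05 ± 0.12, with a 95% interval of -0.31 to 0.21. That interval overlapped those of the H2B genes Hist1h2bc (-0.63 to -0.15) and Hist2h2be (-0.81 to -0.24). It did not overlap that of Hist1h2bg (-2.54 to -1.21), and no difference between genes was tested. Hist1h4h was at -0.66 ± 0.30 (adjusted p = 0.210) and Hist1h4k at -0.56 ± 0.33. Hist1h4n varied most, at 4.45, 0.838 and 1.12 CPM in KO and 1.94, 2.75 and 2.57 CPM in WT, so that 1 KO library was above WT and the others below. Without KO replicate 2, Hist1h4n and Hist1h4k passed the edgeR test as lower (adjusted p = 0.0434 and 0.0497).

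Near-identical copies limit what each of these values counts. The 65 genes encode 29 distinct proteins (6 H1, 9 H2A, 10 H2B, 3 H3 and 1 H4), 8 have the same coding sequence as another member, and 36 match another member at 98% of coding positions or more. The share of 50-base stretches found in no other gene's transcript had a median of 98.9% in H1, 60.5% in H4, 45.4% in H2B, 38.0% in H3 and 27% in H2A. The sources used here give neither the read length nor how reads that match several places were treated. Members with over 75% unique stretches numbered 16, held 58.2% of the counts and had a median log2 fold change of -0.44 over the 14 tested. The median was -0.43 over 26 tested members with over 25% to 75%, and -0.20 over 12 tested members with up to 25%. Exons of 21 members overlap a gene on the opposite strand and those of 7 a gene on the same strand, and the strand setting of the counting is likewise not given, so their reads are uncertain.

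Of the 13 members that were not tested, 7 had no count in any library. The Hist2 genes Hist2h2aa1, Hist2h2aa2, Hist2h2bb, Hist2h3b and Hist2h3c1 had 0 counts in all libraries and no unique 50-base stretch. For these genes a count of 0 does not show that the transcript was absent. Hist1h2aa and Hist1h2ba, which encode testis H2A and H2B, also had 0 counts, with 76.3% and 61.8% of their stretches unique. Testis germ cell markers summed to 3.32 to 4.40 CPM in KO and 2.48 to 4.93 CPM in WT, with Prm2 and Tnp1 at 0. The other 6 had 1 count (Hist1h2br), 3 (Hist1h2bq), 8 (Hist1h1t), 19 (Hist1h4m), 49 (Hist2h2ab) and 53 (Hist1h2ap).

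**Figure D5:**
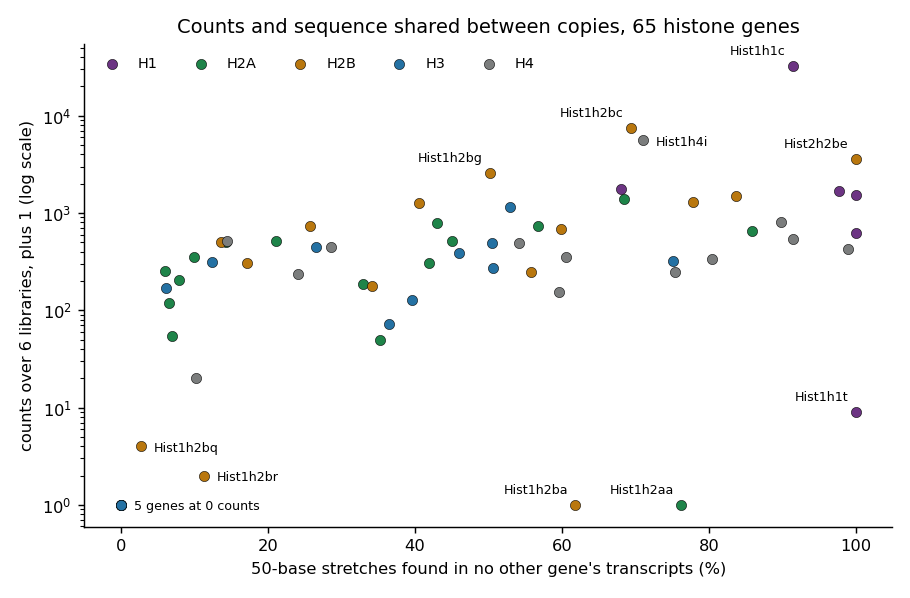
Counts over 6 libraries plus 1 (y axis, log scale) against the share of 50-base stretches found in no other gene's transcripts (x axis, percent) for the 65 histone genes, coloured by type. The 5 genes without a unique stretch have 0 counts, while Hist1h2aa and Hist1h2ba have 0 counts with most of their sequence unique.

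The genes that serve histone supply mostly did not pass the test. Of 11 listed variant histones, 1 was lower and 0 higher, with a median log2 fold change of 0.10. H1f0, a linker histone of differentiated cells, fell to 26.5, 23.7 and 25.3 CPM in KO, against 33.9, 41.2 and 35.8 CPM in WT, a log2 fold change of -0.55 ± 0.10 (SE, edgeR adjusted p = 0.0344). DESeq2 called 4 of the list. No variant passed with edgeR when KO replicate 4 or WT replicate 1, 3 or 4 was left out. At an unadjusted p of 0.05, 2 of the 11 were lower and 3 higher, against 12.2% and 11.7% of all genes tested. H2afz, which encodes H2A.Z, was at 0.34 ± 0.10 (adjusted p = 0.103), and H3f3b was at -0.46 ± 0.14 (adjusted p = 0.0985). Of the genes for histone mRNA 3′ processing and decay, 24 of 26 listed symbols were in the table, 0 passed with edgeR in either direction and the median was 0.06. At an unadjusted p of 0.05, 2 were lower and 3 higher, where 12.2% of all genes tested were lower and 11.7% higher, and DESeq2 called 1 and limma-voom 0. Slbp, the stem-loop binding protein, was at 0.06, and Lsm10, a U7 snRNP subunit, at 0.37 ± 0.11 (adjusted p = 0.0988).

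Of 14 genes of histone gene transcription 0 passed with edgeR, and the median was -0.16. At an unadjusted p of 0.05, 5 of the 14 were lower, against 12.2% of all genes tested, and 0 higher, and DESeq2 and limma-voom each called 1. Npat, the coactivator of histone genes in S phase, was at -0.31 ± 0.09 (SE, edgeR adjusted p = 0.0792), and Pou2f1, which encodes the octamer binding factor Oct-1, was at -0.56 ± 0.13 (adjusted p = 0.0519). Hinfp, a regulator of H4 genes, was at -0.30 ± 0.10 (adjusted p = 0.121). Of 20 histone chaperones 0 passed with edgeR (4 lower at an unadjusted p of 0.05, DESeq2 1, limma-voom 0), with a median of 0.05. Supt16, a subunit of FACT, was at -0.30 ± 0.09. Of 34 DNA replication and S-phase genes 1 was lower and 0 higher with edgeR, with a median of -0.11. In this list 8 genes were lower at an unadjusted p of 0.05, against 12.2% of all genes tested, and 0 higher. DESeq2 and limma-voom each called 3 of the list. Pole, the catalytic subunit of DNA polymerase epsilon, fell with a log2 fold change of -0.65 ± 0.14 (edgeR adjusted p = 0.0481). No gene of the list passed with edgeR when KO replicate 2 or 4 or any 1 WT library was left out. Mki67, a marker of cycling cells, was at -0.68 (adjusted p = 0.0710). Of 11 genes of general cleavage and polyadenylation 0 passed with edgeR, DESeq2 or limma-voom (1 lower at an unadjusted p of 0.05), with a median of 0.05. Pcf11, a cleavage factor, was at -0.28 ± 0.09.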

How the data were processed

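The authors deposited raw read counts per gene for 6 poly(A)-selected mouse bone marrow libraries. Per the submitters' processing notes, Trimmomatic 0.36, STAR 2.5.2b and featureCounts (Subread 1.5.2) were used with GRCm38. The sources used here do not give their settings, the annotation, the strand setting or the treatment of multi-mapping reads. Genes were grouped by genotype and tested with edgeR 4.0.16 in R 4.3.3 (TMM scaling, filterByExpr, quasi-likelihood test, two-sided, Benjamini-Hochberg adjustment over all 16956 genes, threshold 0.05). CPM are counts scaled to the library total times its TMM factor (0.948 to 1.04). CPM per kb divides by merged exon length from GENCODE M21. Sums per histone type add members' CPM in each library and do not depend on how the counted reads were shared between copies of a type. Any reads left uncounted because they match several copies are missing from these sums. The scripts were tested on simulated data. Library totals of 33861440 to 40359093 counts put the floor of 3 counts at 0.0743 to 0.0886 CPM.

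The histone genes and gene lists were chosen with earlier results of these data known. In the text, each type's 3 highest members per kb, 2 most negative and 1 most positive fold changes (mean log2 CPM of at least 1), members past the threshold and testis members were named by rule; other members, and those in divergent pairs or without overlap, were named after their values were seen. Of the listed pathways, genes past the threshold and some of the 3 with the smallest p were named; Slbp, Npat, H2afz and Mki67 were given for their role. Replicates of a group differed well beyond sampling noise (lowest chi-square per gene 29.9). Alternatives were DESeq2 1.42.0, limma-voom (limma 3.58.1), other scalings and filters, a length and GC correction, an Xist covariate, a replicate block and leaving out each library. Promoters came from RefSeq (GRCm38.p6).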

Additional observations from a re-analysis of the deposited data

How the results depend on the processing

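The median log2 fold change of the tested histone genes ranged from -0.66 to -0.20 over all alternatives run. The log2 ratio of their summed counts ranged from -0.82 to -0.40 over other scalings, other choices of members (that without Hist1h1c was chosen after seeing the data) and each library left out, so both kept their sign. No histone gene was called higher under any alternative. The number called lower, 1 as reported, was 8 with DESeq2 and 4 with limma-voom, 6 without filtering, 3 with library totals only, 3 with the length and GC trend removed, and 0 to 7 when a library was left out. Leaving out WT replicate 1, 3 or 4 gave 0, leaving out KO replicate 2 gave 7 (Hist2h2be, Hist1h4k, Hist1h4n, Hist1h2bg, Hist1h2ac, Hist1h1c and Hist1h1a), and the cause was not tested. Over all genes, 417 calls became 1577 with DESeq2 and 786 with limma-voom, 1492 without filtering, 209 with the Xist covariate, and 32 to 920 when a library was left out. With library totals only, the median over all genes was -0.08, against -0.46 for the histone genes.

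A replicate block called 5 histone genes lower (Hist1h4n, Hist1h2bg, Hist1h2ac, Hist1h1c and Hist1h1a). The groups share only numbers 3 and 4, and deviations from the group means correlated at 0.21 for number 3 and at -0.14 for number 4, so the numbers were not taken as pairs. With the block, the log2 fold change of Hist1h2an was -0.20, against 0.15 as reported.

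Some histone genes changed sign under an alternative, in no case past the test with the changed sign, and the cause was not tested. When a library was left out, the log2 fold change of Hist1h1b ranged from -0.46 to 0.12, of Hist1h1e from -0.064 to 0.44, of Hist1h2an from -0.21 to 0.36, of Hist1h4i from -0.14 to 0.021 and of Hist1h4n from -1.30 (without KO replicate 2, where it passed as lower) to 0.20. The Xist covariate gave 0.032 for Hist1h4i, and with it 0 variant histones and 0 S-phase genes passed, against 1 of each as reported.

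Precision was limited by 3 libraries a group, by KO replicate 2, which lay apart from the other KO libraries in most histone genes, and by low counts: 10 members had under 10 reads in all. Copies with little unique sequence, and poly(A) selection of transcripts that mostly lack a tail, limit what a count stands for.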

Other observations

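The histone pseudogenes, which are no members, were chosen after their values were seen. Hist3h2bb-ps, a processed pseudogene on chromosome 11 (58954048 to 58954512, GRCm38), had 3, 4 and 10 counts in KO and 25, 21 and 32 counts in WT. The groups did not overlap, and the log2 fold change was -2.05 ± 0.46 (SE), with an edgeR adjusted p of 0.0503. Hist1h2aj, on chromosome 13, had 20, 14 and 16 counts in KO and 13, 18 and 20 counts in WT, with overlapping groups and a log2 fold change of 0.12 ± 0.34. Hist1h2al had 2, 0 and 0 counts in KO and 0, 1 and 0 counts in WT and was not tested.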
